A study of Mus musculus with 77 samples.

Results

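The blood miRNAs of 5 stress-resilient and 5 control mice of the B6 strain are described here, as measured by small RNA sequencing. The 10 samples were taken by their labels from the 25 blood miRNA samples, among 77 samples in all, and every one of the 299 miRNAs in the blood table was included. No miRNA was selected by its value. All 10 mice were males of the B6 strain (C57BL/6Crl in the labels, C57BL/6NCrl in the study's methods) and 8 weeks old, and the labels name no transgene or drug. Resilient mice had gone through chronic social defeat stress (CSDS), in which a mouse is attacked by an aggressive CD-1 male each day and then lives behind a divider from it, and afterwards still approached an unfamiliar mouse in a social interaction test. Control mice lived behind a divider from a mouse of their own strain, which was exchanged daily, without physical contact. The authors set the border between resilient and susceptible mice from the social interaction of the controls, and chose mice with clear scores for sequencing, so the resilient group is a selected part of the defeated mice. The other 15 blood samples, which entered the fit for its estimate of spread and are used in side-by-side values, were 5 B6 susceptible mice, which avoided the unfamiliar mouse after CSDS, and 5 control and 5 susceptible mice of the D2 strain (DBA/2Crl in the labels). Trunk blood was collected 6 to 8 days after the last defeat. The study's timeline places a forced swim test before that, 5 days after the end of CSDS. The labels do not say which of these mice took it. Each sample is a separate mouse. The sample titles begin with EC3 or EC4, whose meaning the labels do not give. The controls hold 2 EC3 and 3 EC4 mice, and the resilient group holds 3 EC3 and 2 EC4 mice.

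miRNAs are short RNAs that are cut from hairpin precursors and loaded into Argonaute proteins, where bases 2 to 8 at the 5′ end, the seed, pair with target mRNAs and lower their stability and translation. miRNAs with the same seed share most of their predicted targets. In whole blood most miRNA reads come from red cells and their precursors, with smaller parts from white cells, platelets and plasma. miR-451a is the hallmark miRNA of the red cell lineage and is cut by AGO2 itself. In a bulk sample, fewer cells of a type and less RNA per cell cannot be told apart.

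A miRNA was called nominally differentially expressed when its unadjusted p was under 0.05 and its level differed by 1.2-fold or more in either direction, the criteria that the study used. With limma, 13 of the 299 miRNAs (4.35%) were called in resilient mice against controls, 5 higher (1.67%) and 8 lower (2.68%). The 5 higher miRNAs were miR-7a-5p, miR-196b-5p, miR-499-5p, miR-6546-5p and miR-3473h-5p. The 8 lower miRNAs were miR-296-5p, miR-6516-5p, miR-34c-5p, miR-491-5p, miR-210-5p, miR-6240, miR-664-3p and miR-3076-3p. After Benjamini-Hochberg adjustment over the 299 miRNAs 0 of them remained at an adjusted p under 0.05 by limma, where 13 had an unadjusted p under that value and about 15 would have it with no difference at all. The smallest adjusted p was 0.767.

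The mature sequences of the called miRNAs are given first, since the seed decides which mRNAs a miRNA can pair with and whether called miRNAs share targets. The sequences are those of RefSeq on the mouse build GRCm38.p6, which held 253 of the 299 miRNAs and 12 of the 13 called. miR-34c-5p was not among them and is only named. Capitals mark the seed.
miR-7a-5p: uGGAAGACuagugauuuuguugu
miR-196b-5p: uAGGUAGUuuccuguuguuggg
miR-499-5p: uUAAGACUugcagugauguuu
miR-6546-5p: aGGCGCCUcugagcuugugcuugu
miR-3473h-5p: uAGGGGCUggaaaggugacu
miR-296-5p: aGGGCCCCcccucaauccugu
miR-6516-5p: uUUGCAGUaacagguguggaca
miR-491-5p: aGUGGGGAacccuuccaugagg
miR-210-5p: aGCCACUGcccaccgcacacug
miR-6240: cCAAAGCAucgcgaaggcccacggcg
miR-664-3p: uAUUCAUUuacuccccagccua
miR-3076-3p: cGCACUCUggucuucccuugcag

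The 12 sequences carried 12 different seeds, so none of these called miRNAs shared a seed with another. Their lengths ran from 20 to 26 bases, with a median of 22 as over all 253 matched miRNAs. The median GC content was 56.7% for the called miRNAs and 47.8% for all matched miRNAs. Most rows of the blood table name 5p arms, the arm that lies first in the hairpin: 254 rows were 5p, 17 were 3p and 28 named no arm. Of the called miRNAs 10 were 5p, 2 were 3p and 1 named no arm. The contrast is therefore mainly one of 5p arms, and many miRNAs whose 3p arm is the usual guide strand were measured only by their other arm or not at all.

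The depth behind these values was even between the groups. Reads on the 299 miRNAs ran from 7392890 to 9038979 in the controls and from 6916739 to 9366549 in the resilient mice. In each sample 86.7% to 87.8% of reads fell on its 10 leading miRNAs. The values are log2 CPM, the log2 of reads scaled to a common library size. The effective library sizes behind this scaling were 0.842 to 1.06 times the reads. The rank order of miRNAs was alike in all samples, with Spearman correlations across miRNAs of 0.917 to 0.971. The median correlation was 0.951 for the 20 pairs of samples within groups and 0.95 for the 25 pairs between groups. The first principal component held 32.6% of the variance and did not separate the groups (two-sided exact permutation p = 0.881).

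Among the 10 mice, 3 stood apart in the mRNA that had been sequenced from the same blood. The summed reads of 13 salivary gland genes were 5334 in control 3, 11447 in control 5 and 26098 in resilient 1, and between 12 and 57 in the other 7 mice. Bpifa2, a protein secreted by the parotid gland, had 2657, 894 and 7992 reads in those 3 mice and 0 or 1 in the other 7. The gene list was chosen after the values had been seen, and 7 of its 20 genes were not in the mRNA table. The counts of calls and the values of the called miRNAs are therefore given with and without these 3 mice, and the other values only with them. Without them 7 miRNAs were called, 4 higher and 3 lower, and 4 of the 13 were still called, namely miR-296-5p, miR-7a-5p, miR-196b-5p and miR-491-5p. That comparison rests on 3 controls and 4 resilient mice, and the part that salivary RNA has in the other results was not tested.

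**Figure D1:**
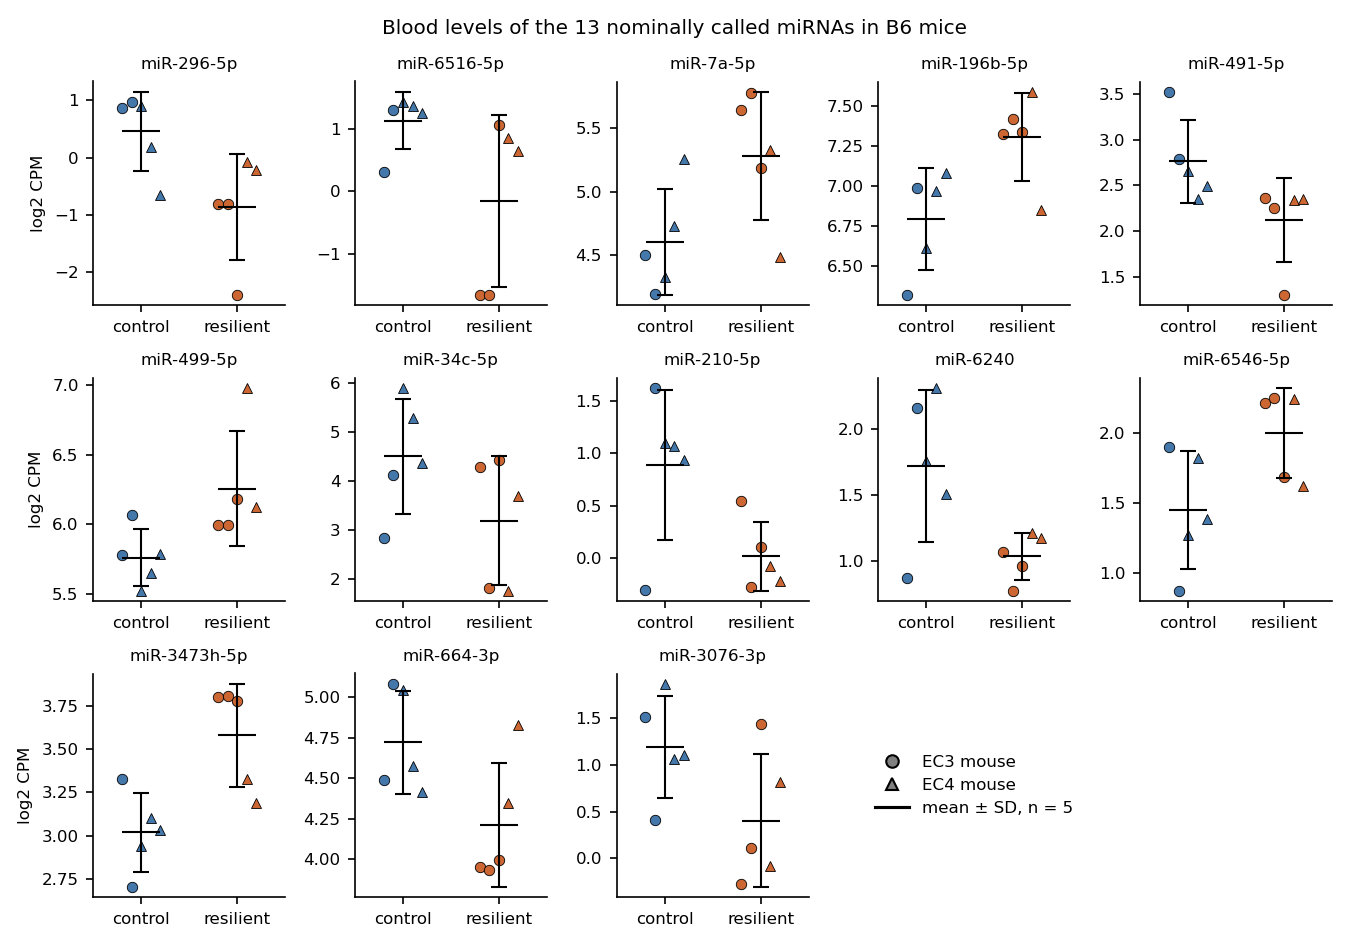
Level of each of the 13 called miRNAs in log2 CPM (vertical axis) in the 5 control and 5 resilient mice, with 1 point per mouse (circles for EC3, triangles for EC4) and the group mean with its SD as lines. In each of the 13 panels the ranges of the groups overlap.

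In none of the 299 miRNAs were the 5 resilient values entirely above or below the 5 control values (0% of miRNAs without overlap). The plot of the called miRNAs by sample shows this for the 13. By the two-sided exact permutation test of 5 against 5 mice, whose smallest possible p is 0.00794, 7 of the 13 and 15 of all 299 miRNAs had p under 0.05. About 15 would have it with no difference at all. The permutation p-values are unadjusted, here and below. They rest on the same values that gave the calls and are not separate evidence for them.

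miR-7a-5p, a miRNA best known from neurons and from pituitary and pancreatic endocrine cells, was called higher. It was at 4.50, 4.19, 4.32, 4.73 and 5.26 log2 CPM in controls 1 to 5 and at 5.64, 5.78, 5.19, 5.33 and 4.48 in resilient mice 1 to 5. Resilient 1 to 4 were above controls 1 to 4, while control 5 lay among the resilient values and resilient 5 among the controls. It had a log2 fold change of 0.68 (SE 0.24, 95% interval 0.18 to 1.18, limma adjusted p = 0.767; exact permutation p = 0.063). It was called with each mouse left out in turn, at 0.56 to 0.88, and without the 3 salivary libraries, at 0.72. The difference was 1.19 in EC3 mice and 0.13 in EC4 mice, with the same direction in both. The mature miRNA can come from hairpins at chr13:58392841-58392863 (minus strand), in an intron of Hnrnpk, and at chr7:78888295-78888317 (plus strand). The blood table does not part these sources.

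Of the measured miRNAs, miR-7b-5p carries the same seed, with bases after the seed that differ:
miR-7a-5p: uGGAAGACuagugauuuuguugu
miR-7b-5p: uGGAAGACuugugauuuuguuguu
miR-7b-5p, whose hairpin is at chr17:56243017-56243040 (plus strand), had the highest estimated fold change of the 299 miRNAs and was not called. Its 4679 reads in resilient 1 stood against 15 to 37 reads in the other 9 mice. The estimate was a log2 fold change of 1.47 (SE 1.19, limma adjusted p = 0.949) with this mouse and -0.05 without it (limma adjusted p = 0.996). Resilient 1 is also the mouse with the most salivary gland reads, and what part these have in its miR-7b-5p level was not tested. miR-7a-5p had 393 reads in that mouse and 144 to 433 reads over all 10 mice. Without resilient 1 its log2 fold change was 0.59.

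miR-196b-5p, which is encoded in the Hoxa gene cluster and can repress Hox mRNAs, was also called higher. It was at 6.31, 6.98, 6.61, 6.97 and 7.08 log2 CPM in the controls and at 7.32, 7.42, 7.34, 7.59 and 6.85 in the resilient mice. Resilient 1 to 4 were above every control, and only resilient 5 lay in the control range. The log2 fold change was 0.51 (SE 0.18, 95% interval 0.13 to 0.89, limma adjusted p = 0.767; exact permutation p = 0.032). Leaving out each mouse gave 0.39 to 0.62, always called, and the value was 0.54 without the salivary libraries, 0.71 in EC3 mice and 0.33 in EC4 mice. With 543 to 1349 reads per mouse it was the most abundant of the called miRNAs, at rank 63 of 299. It lies at chr6:52230129-52230150 (minus strand), where the annotation has an exon of a noncoding transcript of Hoxa9.

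miR-499-5p, made from an intron of the myosin gene Myh7b and abundant in heart and slow skeletal muscle, was called higher as well. It was at 5.78, 6.07, 5.52, 5.65 and 5.79 log2 CPM in the controls and at 6.00, 6.00, 6.18, 6.98 and 6.13 in the resilient mice. Control 2 was above resilient 1 and 2, and resilient 4 stood above all other mice. The groups differed by a log2 fold change of 0.50 (SE 0.20, limma adjusted p = 0.919; exact permutation p = 0.024). It was 0.32 and not called without resilient 4, 0.44 and not called without control 3, and 0.49 and not called without the salivary libraries. Under quantile normalization it was 0.38 and not called. By prefix it was 0.13 in EC3 mice and 0.90 in EC4 mice. It is at chr2:155622893-155622913 (plus strand).

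The other 2 miRNAs called higher had at most 110 reads in any mouse. miR-3473h-5p had 68, 51, 55, 71 and 70 reads in the controls and 109, 110, 108, 58 and 90 in the resilient mice, and after scaling resilient 1 to 3 were above every control, while resilient 4 was level with control 1 and resilient 5 lay below it. It had a log2 fold change of 0.56 (SE 0.25, limma adjusted p = 0.919; exact permutation p = 0.016). miR-6546-5p, in an intron of the Fc receptor gene Fcgr3, had 25, 14, 17, 29 and 22 reads in the controls and 36, 37, 25, 27 and 30 in the resilient mice, with control 1 and 4 inside the resilient range. Its log2 fold change was 0.55 (SE 0.25, limma adjusted p = 0.919; exact permutation p = 0.048). Each was called in only 4 of the 10 fits with 1 mouse left out. Without the salivary libraries miR-3473h-5p was at 0.48 and miR-6546-5p at 0.42, neither of them called. With the title prefix as a covariate miR-6546-5p was at 0.54 and no longer called.

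miR-296-5p had the lowest unadjusted p of the contrast. It is encoded with miR-298 at the imprinted Gnas locus, at chr2:174267093-174267113 (minus strand), where the annotation used had no host gene. Its reads were 12, 15, 13, 9 and 5 in the controls and 4, 4, 1, 5 and 8 in the resilient mice, 54 against 22 in all. In log2 CPM these are 0.87, 0.97, 0.90, 0.19 and -0.65 against -0.81, -0.81, -2.40, -0.08 and -0.22. Controls 1 to 4 were above all resilient mice, and control 5 was below 2 of them. On the log2 scale the fold change was -1.32 (SE 0.44, 95% interval -2.22 to -0.42, limma adjusted p = 0.767; exact permutation p = 0.032). It was called in every fit with 1 mouse left out (-1.60 to -0.94) and was -1.56 without the salivary libraries. By prefix it was -2.26 in EC3 mice and -0.30 in EC4 mice. The neighbouring miR-298-5p, at a higher level, had a log2 fold change of -0.20 (SE 0.24, limma adjusted p = 0.949) and was not called.

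miR-6516-5p lies in an exon of the noncoding host transcript Snhg20 and within a small Cajal body RNA gene, at chr11:117077370-117077391 (plus strand). Its reads were 8, 19, 19, 21 and 20 in the controls and 2, 2, 16, 10 and 15 in the resilient mice. Resilient 1 and 2 were far below all other mice, and resilient 3 to 5 lay between control 1 and the other controls. The groups differed by a log2 fold change of -1.29 (SE 0.45, limma adjusted p = 0.767; exact permutation p = 0.087). It was called in each fit with 1 mouse left out, and it was -0.77 and not called without the salivary libraries. Reads from the overlapping small RNA gene and from the miRNA are not parted by a position alone.

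miR-491-5p, from an intron of Focad, a gene known as a tumour suppressor, was at 3.52, 2.78, 2.65, 2.35 and 2.49 log2 CPM in the controls and at 2.36, 2.25, 1.30, 2.34 and 2.35 in the resilient mice. Control 4 and resilient 1 were nearly level, and the other controls were above all resilient mice. The log2 fold change was -0.64 (SE 0.26, limma adjusted p = 0.919; exact permutation p = 0.016). It was -0.45 without control 1, -0.44 without resilient 3 and not called in either fit, while it was -0.83 and called without the salivary libraries. It is at chr4:88122057-88122078 (plus strand). miR-7003-5p has the same seed, GUGGGGA, and was at -0.51 (SE 0.69), not called.

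miR-34c-5p, which p53 induces, belongs to the miR-34 and miR-449 family, abundant in cells with motile cilia and in the testis. It was at 2.83, 4.12, 5.91, 5.30 and 4.37 log2 CPM in the controls and at 4.29, 1.80, 4.43, 1.74 and 3.69 in the resilient mice. In reads these are 48, 137, 435, 327 and 178 against 153, 27, 171, 19 and 128. Controls 3 and 4 were highest, resilient 2 and 4 were lowest, and the other 6 mice overlapped. The estimate was a log2 fold change of -1.31 (SE 0.55, 95% interval -2.46 to -0.17, limma adjusted p = 0.919; exact permutation p = 0.143). This SE and interval draw on the spread of all 25 blood samples. The SD of miR-34c-5p was 1.18 in the controls and 1.33 in the resilient mice, and 0.46 to 0.79 in the other blood groups. With only the 10 compared mice in the fit, miR-34c-5p was not called. It was 0.03 in EC3 mice and -2.47 in EC4 mice, so the direction was not shared by the prefixes, the only called miRNA of the 13 for which this was so. Without control 3, control 4, resilient 2 or resilient 4 it was -0.96, -1.12, -0.97 and -0.95, and it was not called in any of these fits. It was -1.16 and not called without the salivary libraries.

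**Figure D2:**
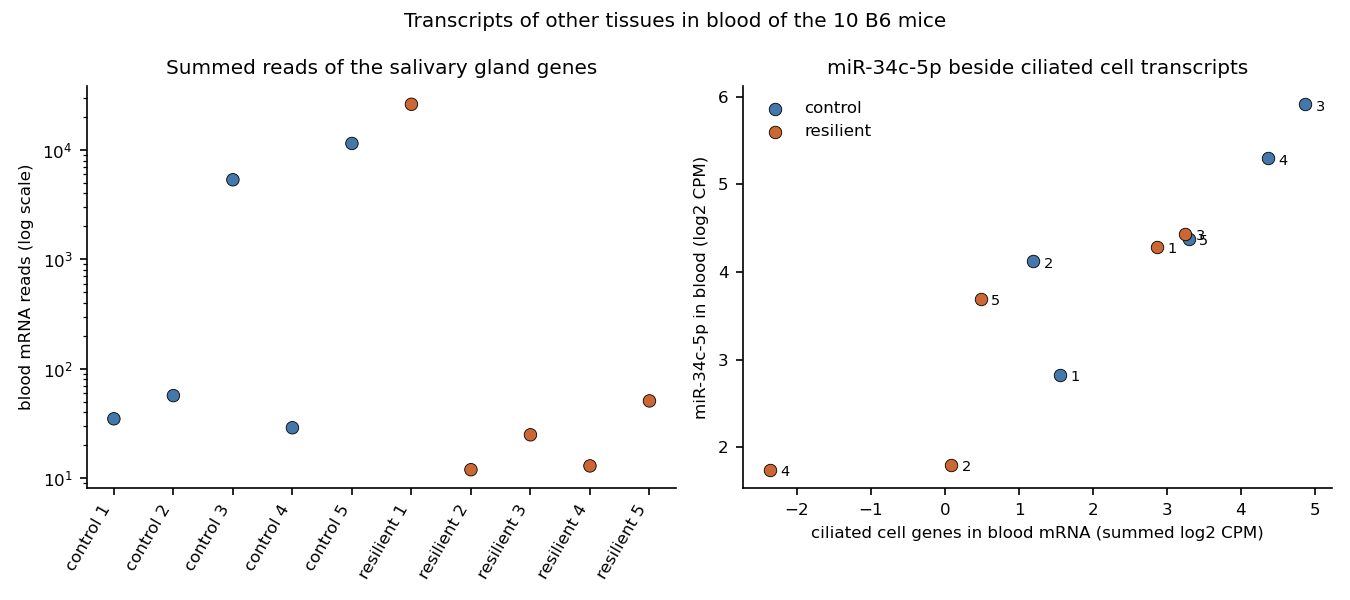
Left, summed blood mRNA reads (log scale) of 13 salivary gland genes in each of the 10 mice. Right, miR-34c-5p in blood (log2 CPM, vertical) against the summed level of 5 ciliated cell genes in mRNA of the same blood (log2 CPM, horizontal), with mice numbered by replicate. Control 3, control 5 and resilient 1 lie at 5334 reads or more on the left, and controls 3 and 4 are highest on both axes on the right.

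Transcripts of ciliated cells differed between the same mice. The summed reads of 5 ciliated cell genes, of 20 listed, were 36, 31, 428, 300 and 140 in the controls and 69, 8, 97, 2 and 32 in the resilient mice. Foxj1, the master transcription factor of motile cilia, had 1, 1, 64, 31 and 26 reads in the controls and 6, 0, 8, 0 and 1 in the resilient mice. Scgb1a1, which marks the secretory club cells of the airway, had 9, 16, 246, 151 and 26 reads in the controls and 24, 2, 36, 0 and 12 in the resilient mice. Thus the mice with the most miR-34c-5p, controls 3 and 4, also had the most reads of these genes, and resilient 2 and 4 had the fewest. The 11 airway secretory cell genes in the table, of 14 listed, had 1447 to 24357 reads in the controls and 313 to 5745 in the resilient mice. The lists were written after the values had been seen, so the relation is only described here and no p-value is given for it. Over the 10 mice Pearson's r of miR-34c-5p with the ciliated sum was 0.909 and Spearman's rho was 0.952, and r was 0.83 in the 8 mice left when the 2 farthest on the horizontal axis were left out. In the 15 other blood samples of the table r was 0.287 and rho 0.411, and the former was 0.207 in 13 of them. Each prefix holds 5 of the 10 mice, and no correlation was computed within a prefix. The part of these transcripts in the miR-34c-5p difference was not tested.

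The other measured members of the family share the seed GGCAGUG:
miR-34a-5p: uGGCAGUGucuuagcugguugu
miR-449a-5p: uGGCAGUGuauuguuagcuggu
miR-34a-5p, at chr4:150068473-150068494 (plus strand), ran from 3.89 to 5.00 log2 CPM in the controls and from 3.58 to 4.46 in the resilient mice. miR-449a-5p, at chr13:113037549-113037570 (plus strand), ran from 3.05 to 4.07 in the controls and from 3.13 to 3.72 in the resilient mice. Their ranges overlapped broadly, and the log2 fold changes of -0.27 (SE 0.31) and -0.34 (SE 0.21) were below 0 but not called, each at a limma adjusted p of 0.949.

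The other 4 miRNAs called lower had small differences for their spread. miR-210-5p comes from the hairpin that also makes the main hypoxia-induced miRNA, at chr7:141221445-141221466 (minus strand). It had 5, 24, 15, 17 and 16 reads in the controls and 11, 6, 8, 5 and 8 in the resilient mice, and control 1 was as low as the lowest resilient mice. On the log2 scale the fold change was -0.87 (SE 0.37, limma adjusted p = 0.919; exact permutation p = 0.056). miR-6240 had 12, 35, 24, 41 and 24 reads in the controls and 16, 13, 15, 13 and 22 in the resilient mice. After scaling control 1 lay among the resilient mice and the other controls above all of them. Its log2 fold change was -0.68 (SE 0.30, limma adjusted p = 0.919; exact permutation p = 0.048). Both were called in 5 of the 10 fits with 1 mouse left out, and neither without the salivary libraries (-0.92 and -0.75).

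Of the last 2, miR-664-3p lies in an intron of Rab3gap2 and within the small nucleolar RNA gene Snora36b, at chr1:185243012-185243033 (plus strand). It had 153, 268, 238, 198 and 183 reads in the controls and 121, 120, 126, 118 and 281 in the resilient mice, and after scaling resilient 1 to 4 were below every control, while resilient 5 lay above controls 1, 4 and 5. It had a log2 fold change of -0.51 (SE 0.23, limma adjusted p = 0.919; exact permutation p = 0.056). It was -0.44 and not called without the salivary libraries. The other arm of the same hairpin was also measured:
miR-664-3p: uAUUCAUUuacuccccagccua
miR-664-5p: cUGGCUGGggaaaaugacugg
miR-664-5p, at chr1:185242975-185242995, was at 1.51, 2.21, 0.79, 2.35 and 2.74 log2 CPM in the controls and at 2.65, 2.46, 2.81, 2.19 and 2.29 in the resilient mice, at levels that overlapped. The estimate was a log2 fold change of 0.56 (SE 0.32, limma adjusted p = 0.949), not called and opposite in sign to that of the 3p arm. The table held both arms of only 5 hairpins, and the difference between the arms was not tested. miR-3076-3p, in an intron of the transketolase gene Tkt, had 19, 10, 26, 17 and 18 reads in the controls and 6, 8, 21, 5 and 17 in the resilient mice. Resilient 3 and 5 lay inside the control range. Its log2 fold change was -0.79 (SE 0.37, limma adjusted p = 0.919; exact permutation p = 0.087), and it kept its call in 4 of the 10 fits with 1 mouse left out and in 4 of 11 other settings. It was -0.43 and not called without the salivary libraries, and it was not called with the title prefix as a covariate (-0.79).

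Just outside the call were miR-7658-3p, with a log2 fold change of -0.94 (SE 0.46), miR-455-5p at -1.08 (SE 0.54) and miR-503-5p at 0.39 (SE 0.20), each at a limma adjusted p of 0.949. The first and second of these estimates were larger in size than those of miR-664-3p (-0.51) and miR-3076-3p (-0.79), just inside the call, and that of miR-503-5p was smaller.

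**Figure D3:**
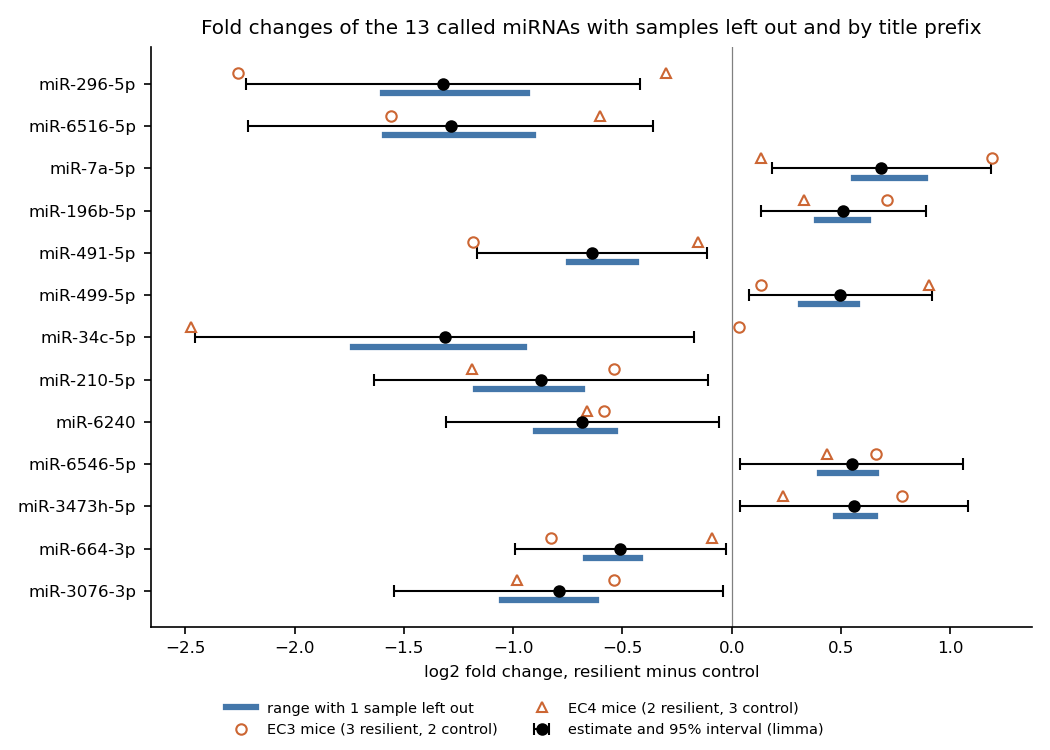
Log2 fold change, resilient minus control, of each called miRNA with its 95% limma interval (black), the range of estimates with 1 mouse left out (blue bar) and the estimates within EC3 mice (circles) and EC4 mice (triangles). For miR-34c-5p the EC3 estimate is at 0.03 and the EC4 estimate at -2.47.

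The plot of fold changes with mice left out shows which calls were stable. miR-296-5p, miR-6516-5p, miR-7a-5p and miR-196b-5p were called whichever mouse was left out. These had the lowest unadjusted limma p of the 13, and the fits share most of their mice. Of these, miR-6516-5p was not called without the salivary libraries. miR-491-5p and miR-499-5p were called in 8 of the 10 fits, miR-34c-5p in 6 and the remaining 6 miRNAs in 4 or 5. The difference had the same direction in EC3 and EC4 mice for 12 of the 13, with few mice in each. The 13 were called by their difference over these same mice, which favours a shared direction, so this is not a replication. The share over all miRNAs was not computed.

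**Figure D4:**
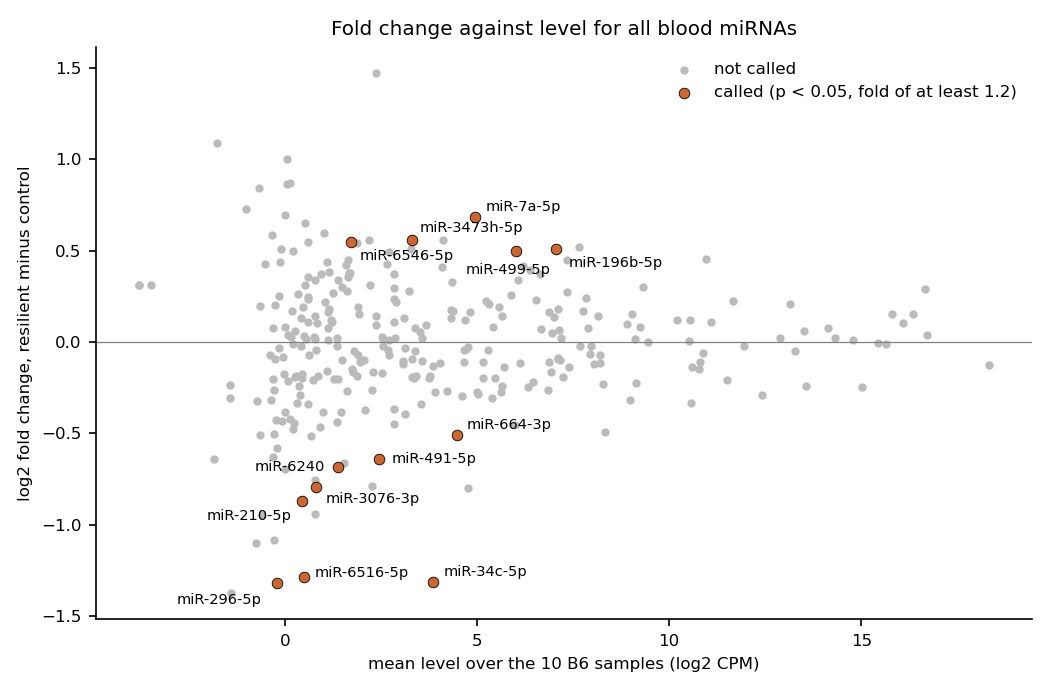
Log2 fold change, resilient minus control (vertical axis), against the mean level over the 10 mice in log2 CPM (horizontal axis) for the 299 blood miRNAs, with the 13 called in colour. The estimates narrow toward 0 as the level rises, and no called miRNA has a mean above that of miR-196b-5p at 7.05 log2 CPM.

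The called miRNAs were scarce in blood. Together they took 0.0292% of the reads of the 10 mice, while the 10 most abundant miRNAs took 87.1%. Fewer than 50 reads in every mouse stood behind 6 of the 13, as behind 125 of the 299. Over all miRNAs the median log2 fold change was -0.0068, with 148 above 0 and 151 below 0, and 120 (40.1%) reached the minimum fold, so most miRNAs past it did not pass the test. The median SE was 0.44 in the 149 miRNAs of lower level and 0.21 in the 150 of higher level, which held 7 and 6 of the called miRNAs.

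None of the 10 most abundant miRNAs was called. The first 2, miR-451a of the red cell and the ubiquitous miR-21a-5p, are shown with the let-7 members that follow:
miR-451a: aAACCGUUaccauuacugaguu
miR-21a-5p: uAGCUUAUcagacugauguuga
let-7i-5p: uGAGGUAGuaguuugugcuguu
let-7g-5p: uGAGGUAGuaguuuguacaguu
miR-451a took 31.6% of the reads and had a log2 fold change of -0.12 (95% interval -0.49 to 0.24). For miR-21a-5p it was 0.04 (-0.27 to 0.35), for let-7i-5p 0.29 (-0.07 to 0.64) and for let-7g-5p 0.16 (-0.12 to 0.43). miR-144-5p, made from the same cluster as miR-451a, was at 0.15 (-0.39 to 0.69) and miR-30e-5p at -0.01 (-0.45 to 0.43), the 2 widest of these intervals. miR-30a-5p was at 0.10, miR-93-5p at -0.01 and miR-30d-5p at 0.01, and the remaining miR-15b-5p was at -0.25 (-0.53 to 0.03).

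**Figure D5:**
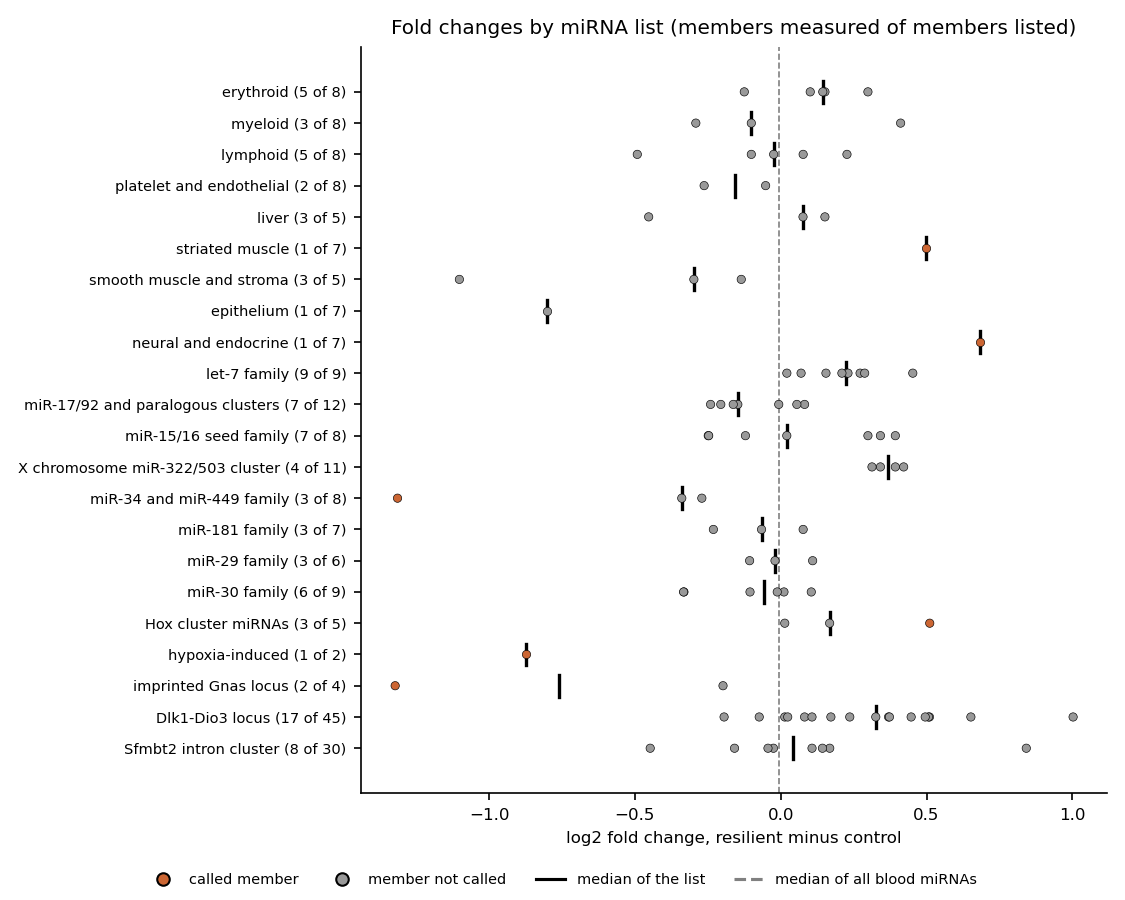
Log2 fold change, resilient minus control (horizontal axis), of the members of each miRNA list in the blood table, with 1 point per miRNA, called members in colour and the median of each list. All 9 listed let-7 members lie above 0 and none of them is called.

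The miRNAs were also read by cell type and family, beside the median of -0.0068 and the 4.35% called over all 299. Beside that share, a count of 0 in a list this short is not a result about the list. No red cell miRNA was called among 5 measured of 8 listed (median 0.14), which include miR-451a, miR-144-5p and miR-486a-5p at 0.10 (SE 0.18). No myeloid miRNA was called among 3 of 8 (median -0.10), with miR-223-5p of granulocytes at 0.41 (SE 0.23) and miR-142a-5p, found in all white cells, at -0.29 (SE 0.36). Of the lymphoid list 5 of 8 were measured and 0 called (median -0.02), with miR-150-5p of mature lymphocytes at -0.49 (SE 0.45). Of the platelet and endothelial list 2 of 8 were measured and 0 called (median -0.16). The summed level of each of these 4 lists overlapped between the groups. For the lymphoid list, for example, the sum ran from 8.63 to 10.1 log2 CPM in the controls and from 8.26 to 10.1 in the resilient mice.

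Lists for other tissues had few members in the table. The liver list had 3 of 5 measured and 0 called (median 0.08), and its defining miR-122-5p was at -0.45 (SE 0.58). The striated muscle list had 1 of 7 measured, the called miR-499-5p, while the other 6 were not in the table. An arm of the muscle miRNA miR-1 that was not on the list, miR-1a-1-5p, was at -0.31 (SE 1.14) with 0 to 19 reads per mouse. The neural and endocrine list likewise had 1 of 7, the called miR-7a-5p. Smooth muscle and stroma had 3 of 5 measured, 0 called and all 3 below 0 (median -0.30). The epithelial list had only miR-205-5p of 7, which was at 3.95, 5.50, 5.89, 6.09 and 4.36 log2 CPM in the controls and at 4.24, 3.60, 3.94, 4.02 and 6.00 in the resilient mice. Controls 2 to 4 and resilient 5 were high and the other 6 low. Its log2 fold change of -0.80 (SE 0.43, limma adjusted p = 0.949) was not called.

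Among the families, the let-7 list had 9 of 9 members measured, 0 called, all 9 above 0 and a median of 0.22. The largest of these 9 estimates was let-7f-5p at 0.45 (SE 0.28). By prefix several members did not keep this direction. let-7f-5p was at 0.97 in EC3 mice and -0.12 in EC4 mice, and let-7a-5p at 0.68 and -0.17. let-7d-5p was at -0.01 and 0.07, while let-7i-5p was above 0 in both, at 0.56 and 0.03. The table also holds let-7j, which was not on the list, at 0.52 (SE 0.31) and not called. Near-identical let-7 members can share reads, so single values are uncertain. The miR-17/92 clusters had 7 of 12 measured and 0 called (median -0.15), and the miR-15/16 seed family 7 of 8 and 0 called (median 0.02). The X-linked cluster of miR-322 and miR-503 had 4 of 11 measured, 0 called and all 4 above 0 (median 0.37), from 0.31 for miR-351-5p to 0.42 for miR-542-5p. The miR-34 and miR-449 family had 3 of 8 measured, all 3 below 0 and 1 called lower (median -0.34). The miR-181 family (3 of 7, median -0.07), the miR-29 family (3 of 6, median -0.02) and the miR-30 family (6 of 9, median -0.06) had 0 called.

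Genomic clusters gave the following. Of the miRNAs in Hox clusters 3 of 5 were measured, all 3 above 0 and 1 called higher (median 0.17), since miR-10a-5p at 0.01 (SE 0.24) and miR-10b-5p at 0.17 (SE 0.35) stayed near 0 while miR-196b-5p was at 0.51. The Gnas locus had 2 of 4 measured, both below 0 and 1 called lower (median -0.76). The hypoxia list had 1 of 2 measured, the called miR-210-5p. In the imprinted Dlk1-Dio3 locus, which holds a large miRNA cluster expressed from the maternal chromosome, 17 of 45 were measured, 0 were called and 15 were above 0 (median 0.33), with miR-409-5p at 1.00 (SE 0.76) and miR-379-5p at 0.37 (SE 0.51). The SEs of these 17 ran from 0.41 to 1.06. The summed level of the locus ran from 6.07 to 8.60 log2 CPM in the controls and from 7.33 to 8.60 in the resilient mice. The cluster in an intron of Sfmbt2 had 8 of 30 measured, 0 called and 4 above 0 (median 0.04). Members of a cluster share a precursor or a locus and are not independent of each other.

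The mRNAs of the host genes gave a separate readout from the same mice. By the annotation GENCODE M21, 9 of the 12 called miRNAs with a position lay in 11 genes on the same strand, and 6 of these genes were among the 13084 in the blood mRNA table. None of the 6 was called in resilient mice against controls, where 2.11% of all genes were, and their smallest limma adjusted p was 0.985. Tkt, the host of miR-3076-3p, was at 6.83 ± 0.17 log2 CPM in the controls and 7.02 ± 0.05 in the resilient mice (SD, n = 5), a log2 fold change of 0.19 (SE 0.11) where its miRNA was lower. Focad was at 3.91 ± 0.25 and 3.65 ± 0.42, a log2 fold change of -0.25 (SE 0.17), and Snhg20 at -0.32 (SE 0.28). Fcgr3 was at -0.07 (SE 0.26), Rab3gap2 at 0.06 (SE 0.09) and Hnrnpk at 0.04 (SE 0.09). Hoxa9, Myh7b and Gm43191, which hold miR-196b-5p, miR-499-5p and miR-3473h-5p, were not among the genes in the table.

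The same contrast was measured on AGO2-bound miRNAs from the BNST (bed nucleus of stria terminalis), a brain region involved in anxiety, in 5 control and 5 resilient pools of B6 mice. Those values were normalized separately, so only fold changes are set side by side. Of the 13 called blood miRNAs 10 had a row there, in 11 rows since miR-7a-5p is listed by hairpin. In the fit used here 0 of the 11 were called, where 9.52% of the 788 AGO2 miRNAs were. The study adjusted its AGO2 miRNA values for surrogate variables (estimated hidden variation), which was not done here. It reported miR-34c and miR-3076 as nominally differentially expressed for this contrast in blood and also in the BNST. Here miR-34c-5p, abundant in the BNST at 11.3 ± 0.84 log2 CPM in the control pools (SD, n = 5), had a log2 fold change of -0.59 (SE 0.42, limma adjusted p = 0.639) against -1.31 in blood. miR-6240 was at -0.95 (SE 0.68) against -0.68 in blood, and miR-3076-3p at 0.65 (SE 0.39) against -0.79. miR-296-5p was at -0.07 (SE 0.16) in the BNST, miR-6516-5p at 0.17 (SE 0.27) and miR-664-3p at -0.03 (SE 0.12). The rows of miR-7a-5p were at -0.32 (SE 0.79) and 0.39 (SE 1.22), with at most 34 reads.

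The other blood contrasts of the table place these miRNAs beside defeated mice that were susceptible. They share the control or the resilient samples with the contrast above, so the values are given only side by side. In B6 susceptible mice against controls 4.01% of miRNAs were called, and miR-7a-5p was among them at a log2 fold change of 0.72 (SE 0.24), beside 0.68 in resilient mice. In susceptible against resilient mice 3.01% were called, and miR-7a-5p was at 0.04 there. miR-296-5p was at -0.28 (SE 0.44) in susceptible mice against controls, beside -1.32 in resilient mice, and at 1.04 in susceptible against resilient mice, where it was called. miR-6516-5p was at -0.06 (SE 0.45), beside -1.29, and at 1.23 between the defeated groups, where it was called too. miR-34c-5p was at -0.95 (SE 0.55) in susceptible mice against controls and not called. In the D2 strain, whose samples are other mice, susceptible mice against controls gave 8.7% called, and of the 13 miRNAs only miR-6240 was called, at 0.91 (SE 0.30). For 2 of these D2 mice, 1 labelled control and 1 susceptible, the data columns name the other group. With the groups of the column names miR-6240 was at 0.52 (SE 0.34) and not called, and of the 13 only miR-6546-5p was called, at 0.49 (SE 0.24). miR-34c-5p was at -0.93 (SE 0.55) in D2 by the labels and -0.36 (SE 0.58) by the columns, and called in neither. A difference between the strains was not tested. Most of the B6 susceptible and D2 mice had many salivary gland reads in their blood mRNA, and the part of these in the values above was not tested.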

How the data were processed

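The authors made small RNA libraries with the NEXTflex Small RNA-Seq Kit, trimmed and filtered the reads, aligned them (Bowtie 1.1.1 in the submitters' processing notes), counted them on miRBase miRNAs, kept miRNAs with enough counts in at least 6 blood samples and transformed the counts with voom. The deposited values are therefore log2 CPM with 0.5 reads added, and no batch correction was applied to the blood data. Every value returned to a whole number of reads within 0.0001 reads, which gave the depth of each sample. Here limma 3.58.1 in R 4.3.3 was fitted to the deposited log2 values of all 25 blood samples in 5 label groups, with a mean-variance trend. No further filter was applied. Calls needed an unadjusted p under 0.05 and a fold of at least 1.2. The limma p-values were adjusted over the 299 miRNAs by the Benjamini-Hochberg method, and tests were two-sided. Exact permutation tests used all 252 splits of 5 against 5 mice, and their p-values were not adjusted. Blood mRNA and AGO2 miRNA values were fitted alike, without the adjustment for surrogate variables that the study made for its AGO2 miRNA data.

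Replicates are separate mice by the labels. The authors chose the resilient mice by behaviour. No pair of samples agreed within counting noise, since the smallest chi-square per degree of freedom between replicates was 145. For 2 D2 mice the label and the column name disagree, and labels were followed, which touches the shared spread of the B6 contrast and decides the values of the D2 contrast, given in both ways. Named miRNAs were all those called, the 10 most abundant, the 3 nearest the call, those sharing a seed or hairpin with them, and the members of the miRNA lists. The 22 lists were for red cells, myeloid and lymphoid cells, platelets and endothelium, liver, striated muscle, smooth muscle, epithelium and neural and endocrine cells, and for families and clusters. The members and lists were chosen with earlier results of these data known. The salivary gland, ciliated cell and airway secretory cell gene lists, miR-7b-5p and the comparison without the salivary libraries were added after values had been seen. The fit was also run on simulated reads in which most miRNAs were changed by known folds. Those settings differ from these data, so that run checks the code and not the calls. Random seed 20190926 was used.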

Additional observations from a re-analysis of the deposited data

Results flagged for a closer look

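Outlying samples were sought with Dixon's ratio, the gap from an extreme sample to its nearest neighbour over the range of its group, with a critical value of 0.71 for 5 samples. Chance gives about 1 in 20 groups, and 54 groups were examined, of which 4 had an outlying sample. miR-6516-5p was lowest in control replicate 1, at 0.3159 log2 CPM. miR-491-5p was lowest in resilient replicate 3, at 1.2982 log2 CPM, and miR-499-5p was highest in resilient replicate 4, at 6.9843 log2 CPM. Neither of the latter was called without that mouse. miR-7b-5p was highest in resilient replicate 1, at 9.2157 log2 CPM, where the next resilient mouse was at 1.74.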

How the results depend on the processing

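Adjusted p stayed above 0.05 for every miRNA tested in each setting tried, and the smallest was 0.157, with sample quality weights. These weights gave 27 called miRNAs, 9 higher and 18 lower. A mean of at least 5 log2 CPM left 3 called, 3 higher and 0 lower, since 10 of the 13 were no longer tested, and a fold of at least 1.5 left 8. Without the 3 salivary libraries, a setting chosen after seeing the data, 7 were called, 4 higher and 3 lower. The other settings (no trend, other samples in the fit, voom weights, quantile normalization, total reads, a pseudocount of 5, the prefix as a covariate) gave 11 to 16. With only the 10 compared mice in the fit 14 were called, but miR-34c-5p, miR-6546-5p and miR-3076-3p were not among them. Leaving out each mouse gave 5 to 23 called, 2 to 9 higher and 3 to 15 lower, with 5 without control replicate 3, 8 without resilient replicate 2, 22 without control replicate 5 and 23 without resilient replicate 5. Host genes and AGO2 rows then had 0 to 1 called. The host gene was Focad, without resilient replicate 2, and the AGO2 rows were miR-6240 without control pool 2 and miR-34c-5p without control pool 5 or resilient pool 1. miR-34c-5p reversed to 0.0334 in EC3 mice alone. Apart from that reversal the direction of each called miRNA held in each setting, though all settings draw on the mice that gave the calls. The cause of the differing counts was not tested. At the fold minimum of 1.2, miR-296-5p, miR-7a-5p and miR-196b-5p were called in every setting that tested them, and miR-196b-5p is not among the 8 at 1.5. No paired analysis was possible because the labels give each mouse its own number and the groups share none. A single read lies at -1.96 log2 CPM in the sample with the lowest total and lower in deeper samples, for example at -2.40 in resilient 3. Differences in the scarcest miRNAs thus rest on few reads.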
